A study of Homo sapiens with 12 samples.

Results

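The metallothioneins and the zinc exporter SLC30A1 were examined in the glioblastoma lines U373 and U87MG, grown alone or in indirect co-culture with each other. The members were 10 genes fixed by name (MT1A, MT1E, MT1F, MT1G, MT1H, MT1M, MT1X, MT2A, MT3 and SLC30A1), and a probe counted for a member where its annotation named that gene and no other. Of these, 9 genes had such a probe, with 12 probes in all, among 18665 genes and 27578 probes named for 1 gene on the array. MT1A had none and was not analysed here. MT1E, MT1H and SLC30A1 had 2 probes each and the others 1.

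RNA was hybridized to 12 Illumina HumanWG-6 v3 BeadChip arrays, 3 biological replicates in each of 4 groups: U373 co-culture, U373 monoculture, U87MG co-culture and U87MG monoculture. In co-culture the lines faced each other across a Transwell membrane with 0.4 µm pores for 72 h after 3 h of adhesion, in 3 ml of shared DMEM with fetal bovine serum (3 ml in monoculture too), and no agent was added to any group. U373 cells always grew in the insert and U87MG cells in the bottom well, also in monoculture, so line and chamber cannot be told apart. Both lines are established, so the arrays describe 1 line each and not glioblastoma in general.

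Metallothioneins are small cysteine-rich proteins that bind zinc, copper and cadmium. When free zinc rises, the zinc finger factor MTF1 binds metal response elements in front of the MT1 and MT2 genes and of SLC30A1, and glucocorticoids and inflammatory cytokines can induce the same MT genes. MT2A and the MT1 isoforms are expressed in many tissues including astrocytes, MT3 is the brain-enriched isoform and responds little to metals, and SLC30A1 (ZnT1) carries zinc out of the cell across the plasma membrane. The MT genes lie side by side on chromosome 16, while SLC30A1 lies on chromosome 1. The MT1 genes are near-identical copies, so a probe of one can also bind the RNA of another, and the value of a single isoform is uncertain to that extent.

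The 250 bases in front of the start of 4 members are printed to show where letters of the metal response element occur in them. They come from the RefSeq promoter table of GRCh38.p14, which held 4 of the 10 members. The capitals mark matches to the core of the metal response element, TGCGCNC or its variant TGCACNC, on either strand.
MT2A, GRCh38.p14 chr16:56608334-56608583, plus strand: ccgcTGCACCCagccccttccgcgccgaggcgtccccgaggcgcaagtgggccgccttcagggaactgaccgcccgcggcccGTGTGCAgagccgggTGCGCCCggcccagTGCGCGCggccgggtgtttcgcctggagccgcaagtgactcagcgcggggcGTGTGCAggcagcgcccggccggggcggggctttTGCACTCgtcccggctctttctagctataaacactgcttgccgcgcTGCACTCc
MT1X, GRCh38.p14 chr16:56682220-56682469, plus strand: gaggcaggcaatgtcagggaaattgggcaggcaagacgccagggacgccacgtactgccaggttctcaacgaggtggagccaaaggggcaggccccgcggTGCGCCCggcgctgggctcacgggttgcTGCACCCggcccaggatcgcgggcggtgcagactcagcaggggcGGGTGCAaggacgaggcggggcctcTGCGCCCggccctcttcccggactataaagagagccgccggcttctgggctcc
MT1H, GRCh38.p14 chr16:56669564-56669813, plus strand: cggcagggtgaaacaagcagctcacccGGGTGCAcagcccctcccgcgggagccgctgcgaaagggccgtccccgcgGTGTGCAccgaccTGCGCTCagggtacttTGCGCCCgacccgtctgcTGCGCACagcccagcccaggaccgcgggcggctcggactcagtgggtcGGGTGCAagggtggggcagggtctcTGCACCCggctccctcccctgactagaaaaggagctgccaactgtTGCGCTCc
SLC30A1, GRCh38.p14 chr1:211579162-211579411, minus strand: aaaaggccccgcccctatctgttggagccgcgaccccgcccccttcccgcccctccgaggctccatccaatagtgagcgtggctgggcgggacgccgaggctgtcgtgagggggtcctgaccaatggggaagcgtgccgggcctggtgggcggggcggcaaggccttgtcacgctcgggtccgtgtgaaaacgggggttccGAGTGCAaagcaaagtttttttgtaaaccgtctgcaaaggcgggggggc

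The window of MT1H held 8 matches, that of MT2A 7, that of MT1X 4 and that of SLC30A1 1, and no matches overlapped within a window. Of 35116 windows of the same length in the table, 24.8% held at least 1 match, 0.37% at least 4 and 0.0313% at least 7. The matches lay on both strands in MT2A (5 on the strand of the gene and 2 on the opposite one), MT1X (3 and 1) and MT1H (5 and 3). The single match of SLC30A1 lay on the opposite strand. MT1B and MT4, family members outside the set, had 3 matches each. A match is a run of letters in this window and not a measured binding site.

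The values are log2 normalized intensities, and a value counts as above background where it exceeds the limit of its array (4.39 to 5.60, the mode of the values plus 3 SD). A difference between such values is a log2 fold change, which is understated for dim genes because the authors' transformation flattens near background. Since the arrays measure RNA of whole cultures, fewer cells that express a gene and less RNA per cell cannot be told apart. The lines were distinct: Pearson r over all probes was 0.9768 to 0.9888 between replicates and 0.9091 to 0.9269 between the lines. Of 10 glial and glioma markers, 7 were above background on all 3 arrays of U373 cells in either culture. In U87MG cells this held for 5. GFAP and SOX2 were at background in U87MG cells, and S100B, AQP4 and ALDH1L1 in both lines. IGFBP5, at 12.41 to 12.87 on the U373 arrays, was at 5.98 and above background on U87MG co-culture replicate 1, against 3.16 to 4.05 on the other U87MG arrays. The array U373 monoculture replicate 2 had the highest background limit and the fewest probes above it (24.42%).

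MT2A, the main MT2 isoform, was lower in U373 than in U87MG cells. In monoculture it was at 12.73, 12.75 and 12.82 in U373 cells, against 14.42, 14.61 and 14.65 in U87MG cells. In co-culture it was at 12.72, 12.82 and 12.97 in U373 cells, against 14.28, 14.48 and 14.79 in U87MG cells. The lines did not overlap in either culture, and the spread between arrays of a group was small beside the distance between the lines. The difference was -1.79 ± 0.15 in monoculture (SE, n = 3 each, adjusted p = 6.36e-08 with limma), which is 3.46-fold lower, and -1.68 ± 0.15 in co-culture (adjusted p = 1.39e-07).

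MT1X showed the same order of the lines. Its values were 11.17, 11.36 and 11.41 in U373 monoculture, against 13.12, 13.13 and 13.15 in U87MG monoculture. In co-culture they were 10.85, 10.87 and 11.01 in U373 cells, against 13.47, 13.61 and 13.64 in U87MG cells. The U87MG monocultures lay within 0.03 of each other. The difference between the lines was -1.82 ± 0.13 in monoculture (adjusted p = 8.23e-09), or 3.53-fold lower, and -2.66 ± 0.13 in co-culture (adjusted p = 9.93e-11), or 6.32-fold lower.

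MT1F was lower in U373 cells in both cultures. It was at 10.02, 10.51 and 10.82 in U373 monoculture, against 11.03, 11.29 and 11.38 in U87MG monoculture, and the difference was -0.78 ± 0.19 (adjusted p = 0.00268). In co-culture it was at 9.75, 9.92 and 10.01 in U373 cells, against 11.48, 11.75 and 11.91 in U87MG cells, and the difference was -1.82 ± 0.19 (adjusted p = 9.29e-07). With 1 array left out in turn the monoculture difference ran from -0.97 (adjusted p = 0.000639) without U373 monoculture replicate 2 to -0.56 (adjusted p = 0.018) without U373 monoculture replicate 1. The lines did not overlap in either culture.

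MT1G and MT1M were at or near background in U373 cells and above it in U87MG cells. MT1G was at 4.87, 4.99 and 5.83 in U373 monoculture, where 2 of 3 arrays were above background, against 8.79, 9.07 and 9.33 in U87MG monoculture. In co-culture MT1G was at 5.19, 5.28 and 5.48 in U373 cells, just above background on all 3 arrays, against 9.10, 9.40 and 10.02 in U87MG cells. The MT1G difference was -3.83 ± 0.26 in monoculture (adjusted p = 4.83e-09), or 14.2-fold lower, and -4.19 ± 0.26 in co-culture (adjusted p = 1.73e-09), or 18.2-fold lower.

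MT1M was at 2.42, 2.54 and 3.11 in U373 monoculture, not above background on any array, against 6.28, 6.48 and 6.60 in U87MG monoculture. In co-culture it was again at background in U373 cells (2.68, 2.88 and 3.02), against 6.72, 6.81 and 7.13 in U87MG cells. Its U373 values therefore only bound the difference: in U373 cells MT1M was lower by at least 2.46-fold in monoculture and by at least 3.74-fold in co-culture. These bounds set the U87MG mean against the lowest signal that counted as above background on each U373 array. Like the bounds of the other genes here, they rest on group means and carry no error. The limma test (adjusted p = 1.24e-10 and 6.39e-11) used the U373 values at background and did not test the bounds. MT1M was tested only through its U87MG signal, so these p-values are no support.

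MT1E had a bright and a dim probe, which ordered the lines alike. The brighter probe was at 10.92, 11.20 and 11.42 in U373 monoculture, against 12.95, 13.08 and 13.13 in U87MG monoculture, and at 10.78, 11.08 and 11.12 in U373 co-culture, against 12.88, 13.05 and 13.24 in U87MG co-culture. Its difference was -1.87 ± 0.17 in monoculture and -2.06 ± 0.17 in co-culture (adjusted p = 2.05e-07 and 7.39e-08 in the fit of single probes). The dim probe was at background in U373 cells in both cultures and gave bounds of at least 1.55-fold lower in monoculture and at least 2.35-fold lower in co-culture. The mean of both probes differed by -1.53 ± 0.16 in monoculture (adjusted p = 8.7e-07 with limma) and by -1.89 ± 0.16 in co-culture (adjusted p = 8.07e-08). This mean holds the dim probe's U373 values at background, so the brighter probe is the plainer measure.

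MT1H was dim, and its call depended on how its probes were joined. One probe was not above background on any of the 12 arrays. The other was at 5.29, 5.50 and 6.06 in U373 monoculture, against 6.18, 6.33 and 6.45 in U87MG monoculture, and at 5.16, 5.25 and 5.32 in U373 co-culture, against 6.60, 6.81 and 6.86 in U87MG co-culture. The mean of both probes differed by -0.35 ± 0.16 in monoculture, which did not pass (adjusted p = 0.0794), and by -0.67 ± 0.16 in co-culture (adjusted p = 0.00286). The brighter probe alone differed by -0.71 ± 0.19 in monoculture (adjusted p = 0.00431) and by -1.51 ± 0.19 in co-culture (adjusted p = 6.06e-06). Without U373 monoculture replicate 2 the mean also passed in monoculture, at -0.48 (adjusted p = 0.0289).

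MT3, the brain-enriched isoform, ran the other way. It was at 5.01, 5.67 and 6.36 in U373 monoculture and at 5.28, 5.40 and 5.97 in U373 co-culture, above background on all 3 arrays of each. In U87MG cells it was at background on every array, at 3.34 to 3.56 in monoculture and 3.34 to 3.49 in co-culture. The bounds for MT3 in U373 cells were at least 1.75-fold higher in monoculture and, for co-culture, at least 1.86-fold higher. They rest on the means of the U373 arrays and carry no error. U373 monoculture replicate 1, at 5.01, lay just over the limit of its own array (4.98). The limma test (adjusted p = 2.77e-06 and 5.19e-06) used the U87MG values at background and did not test the bounds. MT3 was tested only through its U373 signal, so these p-values are no support. With a limit of 5 SD above the mode MT3 was no longer among the genes tested.

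SLC30A1, the zinc exporter, was lower in U373 cells, by less than most of the MT genes. The mean of its probes was at 6.02, 6.21 and 6.33 in U373 monoculture, against 6.80, 6.83 and 7.10 in U87MG monoculture. In co-culture it was at 6.05, 6.36 and 6.71 in U373 cells, against 7.10, 7.10 and 7.30 in U87MG cells. The difference was -0.72 ± 0.17 in monoculture (adjusted p = 0.00194), or 1.65-fold lower, and -0.79 ± 0.17 in co-culture (adjusted p = 0.000979). The probes differed in monoculture: 1 gave -1.01 ± 0.18 (adjusted p = 0.000242), the other -0.44 ± 0.20 (adjusted p = 0.0783).

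**Figure D1:**
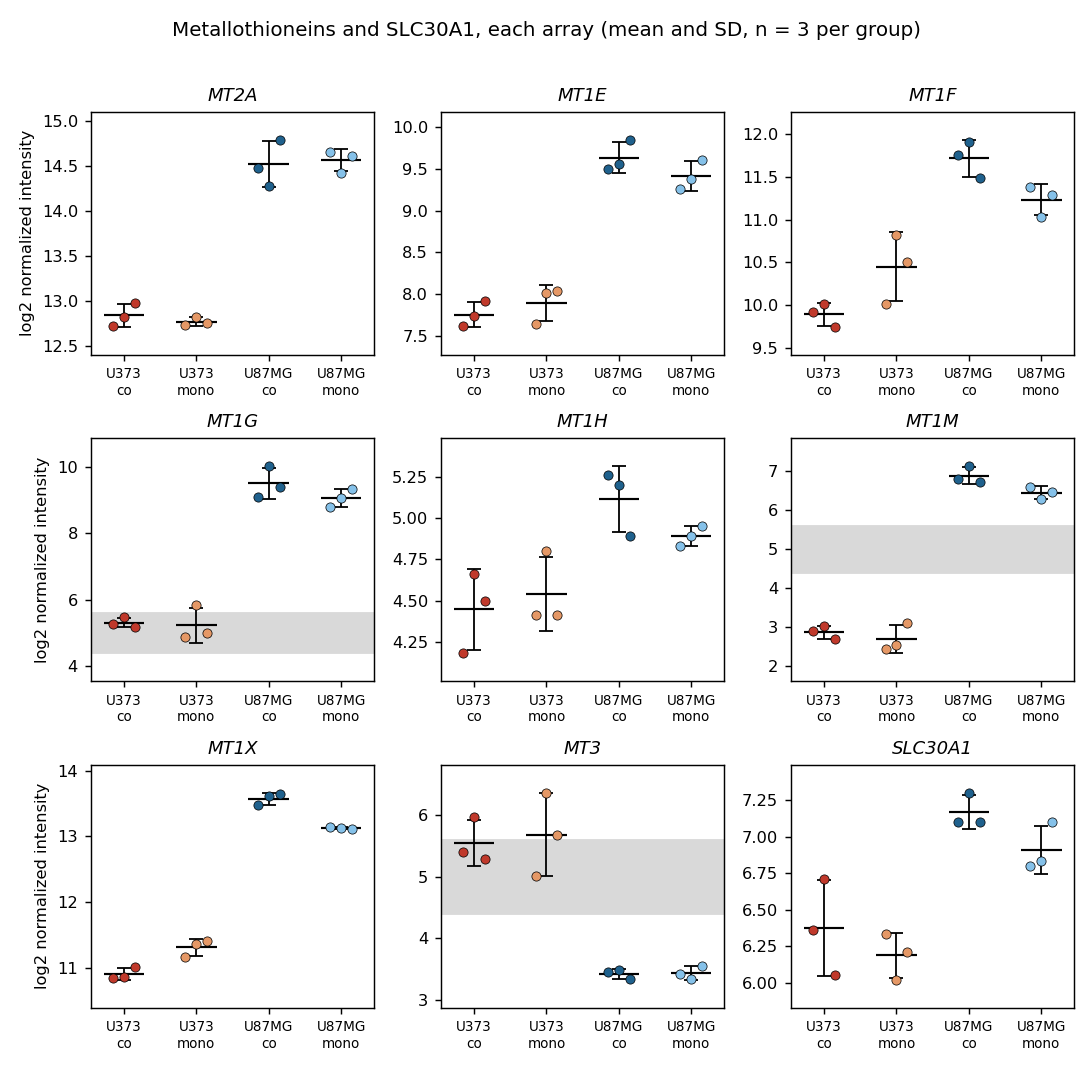
Log2 normalized intensity (vertical axes, scaled to each gene) of the 9 analysed members on each array, by culture group. Points are arrays in replicate order, bars are means with SD (n = 3), and probes of a gene are averaged. Grey bands, drawn for MT1G, MT1M and MT3 only, span the background limits of the 12 arrays. MT1H is also near background but has no band. MT3 alone lies higher in U373 than in U87MG cells, and MT1M lies under the band in U373 cells.

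Counted together, 8 of the 9 members passed the test between the lines in monoculture, 7 lower and 1 higher in U373 cells, with MT1H not passing. In co-culture 9 of 9 passed, 8 lower and 1 higher. The lines differ widely, so this count has a high background: of 10571 genes tested, 59.3% passed in monoculture (27.9% higher and 31.3% lower) and 57.5% in co-culture (25.6% higher and 31.9% lower). The groups did not overlap for 9 of 9 members in either culture, as for 64.1% of all genes in monoculture and 62.7% in co-culture. The median log2 difference over the members was -1.53 in monoculture and -1.82 in co-culture, against -0.053 and -0.07 over all genes tested. The monoculture median is the value of MT1E, whose dim probe was at background in U373 cells. MT1M and MT3 passed the filter on dim genes only through the line in which they were high, so their part in these counts is no support.

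**Figure D2:**
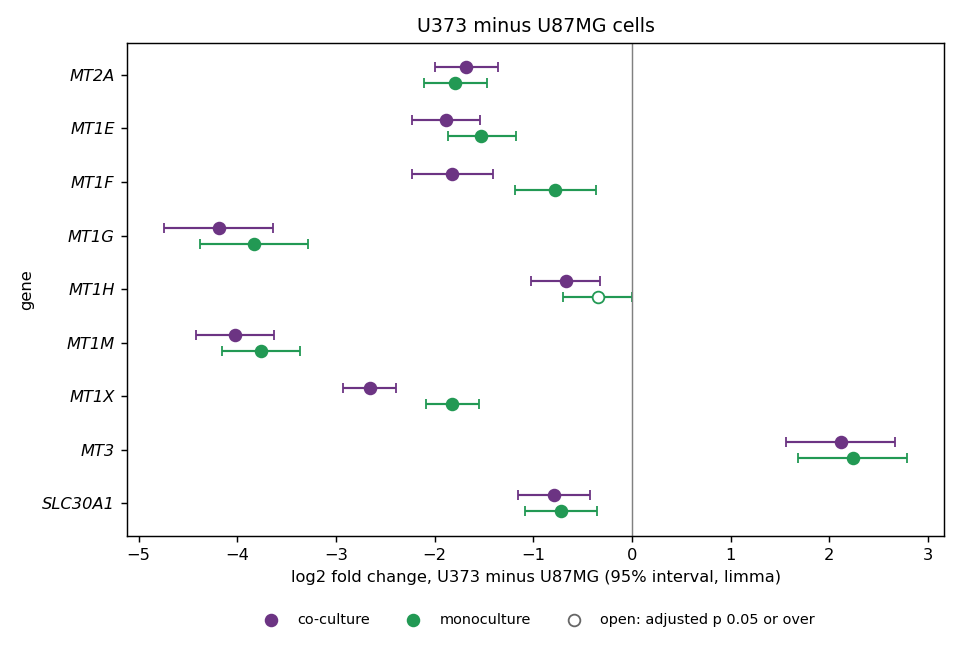
Log2 fold change of U373 over U87MG cells (horizontal axis) with 95% intervals from limma for each member, in co-culture and in monoculture; open points did not pass at an adjusted p of 0.05. MT3 lies right of 0 and the other members left of it; fitted values of MT1M and MT3 are drawn although a line at background gives only a bound.

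Co-culture shifted no member past the test in either line. In U373 cells 0 of 9 members passed, with 0.114% of all genes tested passing, and 2 members (MT1F and MT1X) had an unadjusted p under 0.05, as 1014 of the 10571 genes did. In U87MG cells 0 of 9 passed, with 0% of all genes passing, and 3 members (MT1F, MT1M and MT1X) had an unadjusted p under 0.05, as 741 of the 10571 genes did. The groups did not overlap for 2 of 9 members in U373 cells (background 11.9%) and for 4 of 9 in U87MG cells (background 14.4%), 1 of which was SLC30A1, whose nearest values both rounded to 7.10.

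MT1X had co-culture and monoculture values that did not overlap in either line, and lay on opposite sides. In U373 cells it was at 10.85, 10.87 and 11.01 in co-culture, against 11.17, 11.36 and 11.41 in monoculture, a difference of -0.40 ± 0.13 (adjusted p = 0.315). In U87MG cells it was at 13.47, 13.61 and 13.64 in co-culture, against 13.12, 13.13 and 13.15 in monoculture, a difference of 0.44 ± 0.13 (adjusted p = 0.685). Neither passed over all genes. The difference of these co-culture effects, U373 minus U87MG, was -0.84 ± 0.18 (95% interval -1.22 to -0.45), with an unadjusted p of 0.00034 and an adjusted p of 0.319 by limma over 10571 genes.

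MT1F had the same layout. In U373 cells it was at 9.75, 9.92 and 10.01 in co-culture, against 10.02, 10.51 and 10.82 in monoculture, a difference of -0.56 ± 0.19 (adjusted p = 0.355), and the groups were parted by 0.01. In U87MG cells it was at 11.48, 11.75 and 11.91 in co-culture, against 11.03, 11.29 and 11.38 in monoculture, a difference of 0.48 ± 0.19 (adjusted p = 0.70). The difference of the co-culture effects was -1.04 ± 0.27 (95% interval -1.62 to -0.46), with an unadjusted p of 0.00163 and an adjusted p of 0.477. Of all genes tested, 0.00946% passed this test of the difference, and 0 of 9 members did. An unadjusted p under 0.05 was found for 666 of the 10571 genes in it. MT1X and MT1F were picked for their layout, so their unadjusted p-values are no support. How many of all genes had the same layout was not counted. The co-cultured lines shared their medium, and the probes of MT1F and MT1X may bind the RNA of both genes, so these values are not independent of each other.

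The other members gave no such layout. MT1M was at 6.72, 6.81 and 7.13 in U87MG co-culture, against 6.28, 6.48 and 6.60 in U87MG monoculture (0.43 ± 0.19, adjusted p = 0.70), and was at background in U373 cells in both cultures. MT1G differed by 0.08 ± 0.26 in U373 cells and by 0.44 ± 0.26 in U87MG cells, with overlapping groups in both. MT2A differed by 0.07 (95% interval -0.25 to 0.39) in U373 cells and by -0.04 (95% interval -0.36 to 0.28) in U87MG cells. MT3 differed by -0.13 ± 0.26 in U373 cells, where its groups overlapped. MT1E differed by -0.14 ± 0.16 in U373 cells and 0.22 ± 0.16 in U87MG cells. The brighter MT1H probe differed by -0.37 ± 0.19 in U373 cells, with overlapping groups, and by 0.43 ± 0.19 in U87MG cells, where they did not overlap (adjusted p = 0.552 and 0.719 in the fit of single probes).

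SLC30A1 differed by 0.19 ± 0.17 in U373 cells and 0.26 ± 0.17 in U87MG cells, without passing in either. Its highest U373 value, 6.71, was on U373 co-culture replicate 2, and without that array the U373 difference was 0.02, while without U373 co-culture replicate 3 it was 0.35. On the same array HMOX1, the inducible heme oxygenase, was at 10.17, against 7.41 and 7.76 in the other U373 co-cultures and 7.07 to 7.44 in U373 monoculture. AQP9, an aquaporin seen above background in U87MG cells only, was at 4.47 there, not above background. The part of this array in the SLC30A1 value was not tested beyond leaving it out. Leaving out U87MG co-culture replicate 1, the array with IGFBP5 signal, gave 0.49 for MT1X and 0.46 for MT1F in U87MG cells.

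**Figure D3:**
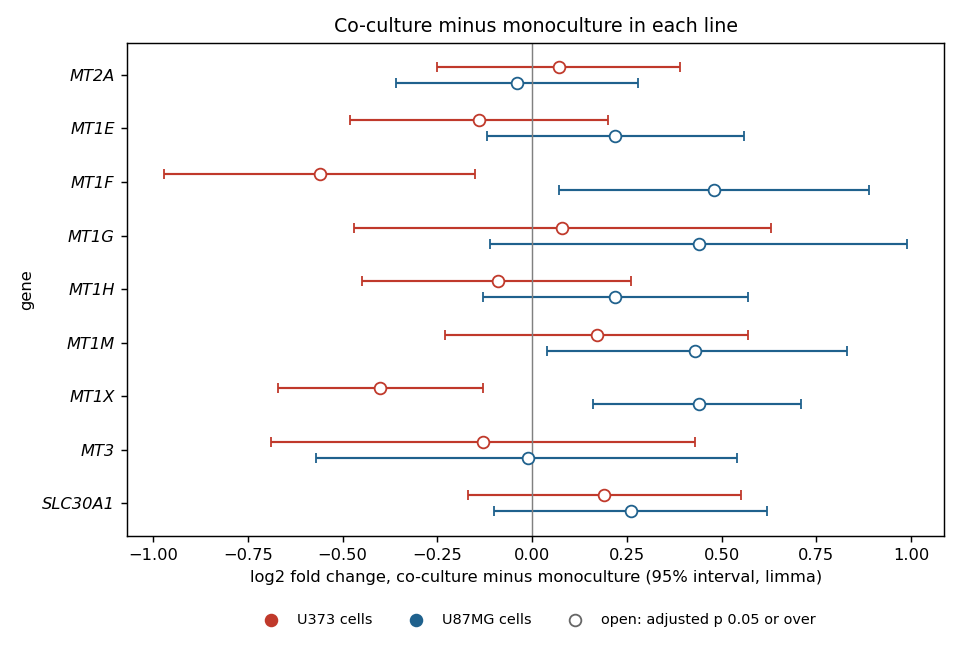
Log2 fold change of co-culture over monoculture (horizontal axis) with 95% intervals from limma for each member, in U373 and in U87MG cells; no point passed at an adjusted p of 0.05. MT1F and MT1X lie left of 0 in U373 cells and right of 0 in U87MG cells, with intervals that do not cross 0.

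Within the lines MT2A did not move with most of the MT1 isoforms. After each line's mean was taken away, every pair of tested MT1 isoforms correlated positively over the 12 arrays. Their values ran from 0.21 (MT1H with MT1M) to 0.79 (MT1X with MT1F), and MT1X with MT1E was at 0.70. MT2A correlated at -0.28 with MT1F, -0.25 with MT1M, -0.24 with MT1G, -0.2 with MT1H, -0.07 with MT1X and 0.38 with MT1E. SLC30A1 correlated at 0.60 with MT1M, 0.37 with MT1G, 0.21 with MT1H, 0.05 with MT1F and 0.03 with MT3. With MT1X it was at -0.02, with MT1E at -0.04 and with MT2A at -0.29. MT1M and MT3 were each at background in 1 line. These are descriptions over arrays that share 4 groups and, for the MT1 isoforms, similar probe targets. Array U373 monoculture replicate 2 held the highest U373 monoculture value of 5 of the 9 members and replicate 1 the lowest of 8. The 8 include MT1H, for which replicates 1 and 3 tied at 4.41 after rounding. U373 co-culture replicate 2, high in HMOX1, held its group's highest value for 6 of the 9 members and the lowest for 0. The 6 include MT1M, at background there.

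Other genes of the zinc pathway, from lists compiled for this comparison, did not follow 1 direction. Where a gene of a list has 2 log2 differences between the lines, the first is for monoculture and the second for co-culture, each with its SE. Of the other metallothionein genes, 3 of 7 had a named probe and none of these was above the filter. Of the other zinc exporters of the SLC30A family, 3 of 5 tested were higher in U373 cells in monoculture and 0 lower: SLC30A3 by 0.74 ± 0.27, SLC30A5, which loads zinc into the secretory pathway, by 0.47 ± 0.14, and SLC30A9 by 0.35 ± 0.14. In co-culture 0 of 5 passed. The exporters called were 60% in monoculture, near the 59.3% of all genes tested, and 0% in co-culture, beside 57.5%. MTF1, the metal sensor, was at a mean of 8.0 in U373 and 7.83 in U87MG monoculture, a difference of 0.17 ± 0.16 that did not pass (adjusted p = 0.381). Of its list of 6 tested stress-responsive factors, 1 was higher and 2 were lower in monoculture, among them NFE2L2 at -0.80 ± 0.23. This is 50% called, beside 59.3% of all genes tested.

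Of 11 tested zinc importers of the SLC39A family, 4 were higher and 4 lower in U373 cells in monoculture, and 4 higher and 5 lower in co-culture. The share called was 72.7% in monoculture and 81.8% in co-culture, beside 59.3% and 57.5% of all genes tested. SLC39A6 was lower, by a log2 difference of -1.52 ± 0.22 in monoculture and -1.28 ± 0.22 in co-culture, and SLC39A9 by -1.31 ± 0.26 and -1.29 ± 0.26. SLC39A14, which takes up zinc, iron and manganese at the cell surface, was lower (-0.98 ± 0.24 and -0.59 ± 0.24), but in co-culture the lines overlapped. There U373 replicate 2 was at 9.88, against 8.74 and 8.99 in the other U373 co-cultures and 9.58 to 10.11 in U87MG co-culture. SLC39A7, which releases zinc from the endoplasmic reticulum, was higher by 1.15 ± 0.16 and 1.03 ± 0.16.

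Of 11 copper-handling genes, 3 were higher and 3 lower in U373 cells in monoculture, and 2 higher and 4 lower in co-culture. With 54.5% called in each culture, they were near all genes tested, at 59.3% and 57.5%. SLC31A2, a copper transporter of endosomes and lysosomes, was lower (-1.95 ± 0.17 and -1.89 ± 0.17). ATP7A, the copper export pump, was higher by 1.18 ± 0.17 and 0.93 ± 0.17. ATOX1, the chaperone that hands copper to the pump, was lower (-0.51 ± 0.13 and -0.85 ± 0.13).

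Of 9 tested genes induced by metals and oxidants, 5 were higher and 1 lower in U373 cells in monoculture, and 3 higher and 1 lower in co-culture. Those called were 66.7% in monoculture and 44.4% in co-culture, beside 59.3% and 57.5% of all genes tested. The 1 lower gene was HMOX1, at 7.07, 7.19 and 7.44 in U373 monoculture, against 10.99, 11.19 and 11.29 in U87MG monoculture. Its difference was -3.92 ± 0.47 in monoculture (adjusted p = 3.84e-06 with limma) and -3.05 ± 0.47 in co-culture (adjusted p = 5.35e-05). In co-culture U373 replicate 2 stood above the other U373 arrays. Without that array, left out after its value was seen, the co-culture difference was -3.92. It was -2.53 without U373 co-culture replicate 1 and -2.71 without replicate 3. NQO1, a quinone reductase under the oxidant sensor NFE2L2, was higher by 1.01 ± 0.17 and 0.54 ± 0.17, and GCLM, a subunit of the enzyme that starts glutathione synthesis, by 0.64 ± 0.16 and 0.71 ± 0.16. SLC7A11, the cystine importer, was at least 1.82-fold higher in U373 monoculture.

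Of 8 tested genes on the list of glucocorticoid responses, which also holds the receptor NR3C1, 4 were higher and 0 lower in U373 cells in monoculture, beside 27.9% of all genes tested higher there, and 5 higher and 0 lower in co-culture, beside 25.6%. The transcription factors KLF9 and CEBPD were higher by 3.34 ± 0.24 and 1.78 ± 0.26 in monoculture and by 3.02 ± 0.24 and 1.97 ± 0.26 in co-culture. FKBP5, a co-chaperone of the glucocorticoid receptor, was higher by 1.03 ± 0.27 and 1.2 ± 0.27. The glucocorticoid receptor NR3C1 itself differed by -0.14 ± 0.14, which did not pass.

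Of 9 tested genes of IL6 family signalling, 1 was higher and 6 lower in U373 cells in monoculture, and 2 higher and 2 lower in co-culture. Their share called was 77.8% and 44.4%, beside 59.3% and 57.5% of all genes tested. Among all genes tested, 31.3% were lower in monoculture and 31.9% in co-culture. The cytokine LIF was lower (-2.63 ± 0.35 and -1.67 ± 0.35), and the transcription factor CEBPB as well (-1.2 ± 0.21 and -0.73 ± 0.21). OSMR, the oncostatin M receptor, was lower (-1.35 ± 0.25 in monoculture). SOCS3, a feedback inhibitor of the pathway, was lower in monoculture (-0.60 ± 0.24). STAT3, which carries the signal to the nucleus, was higher in co-culture (0.70 ± 0.14). The median log2 differences in monoculture and co-culture were 0.35 and 0.01 for the SLC30A exporters, -0.18 and 0.04 for the SLC39A importers, and 0.09 and -0.08 for the copper genes. They were 0.39 and 0.29 for genes induced by metals and oxidants, 0.66 and 0.86 for the glucocorticoid list, and -0.60 and -0.26 for IL6 family signalling, beside -0.053 and -0.07 over all genes tested. No gene of these lists passed between co-culture and monoculture in either line.

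The genes beside the metallothionein cluster on chromosome 16 were also mostly lower in U373 cells. Of 15 tested neighbours, 10 were lower and 1 higher in monoculture, against a background of 31.3% lower and 27.9% higher. In co-culture 9 were lower and 2 higher, against a background of 31.9% lower and 25.6% higher. Their median log2 difference was -0.59 in monoculture and -0.65 in co-culture, nearer to 0 than that of the members. BBS2, of the protein complex that serves cilia, differed by -0.86 ± 0.19 and -1.02 ± 0.19, NUP93, of the nuclear pore, by -0.81 ± 0.15 and -0.92 ± 0.15, CPNE2 by -1.07 ± 0.23 and -0.97 ± 0.23, and PSME3IP1 by -0.98 ± 0.15 and -1.13 ± 0.15. PLLP, the proteolipid plasmolipin, was at least 1.83-fold higher in U373 monoculture.

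**Figure D4:**
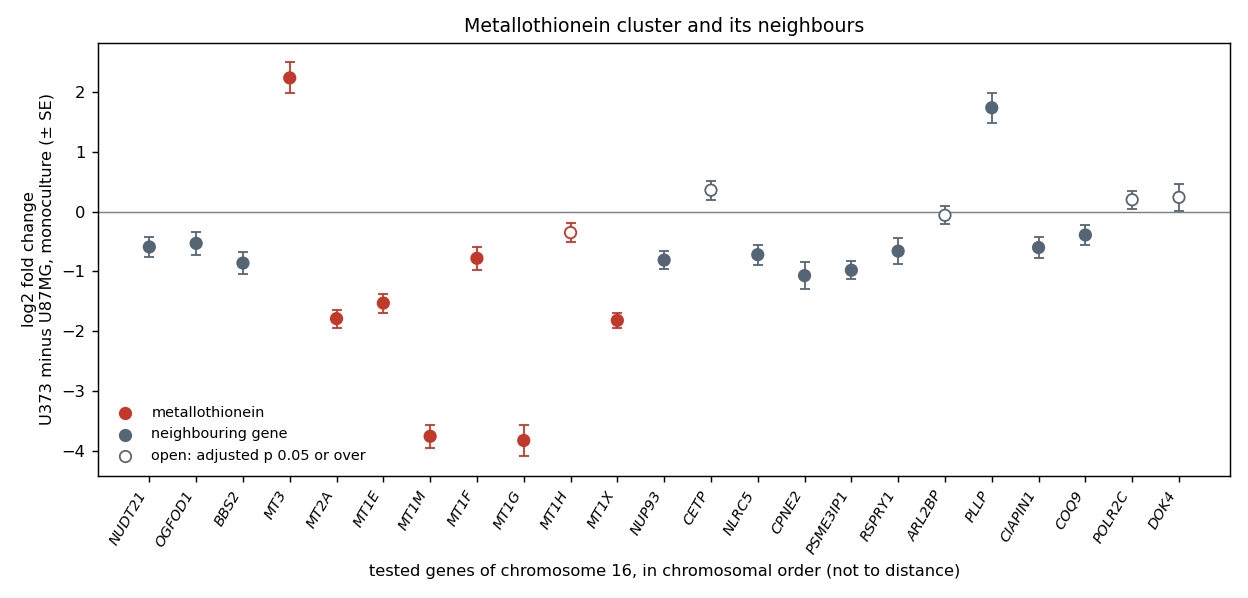
Log2 fold change of U373 over U87MG cells in monoculture (vertical axis, with SE) for the tested metallothioneins and their tested neighbours, in chromosomal order along chromosome 16 and not to distance; open points did not pass at an adjusted p of 0.05. Most neighbours lie a little under 0; points of MT1M, MT3 and PLLP are fitted values drawn although a line at background gives only a bound, so they cannot be ranked.

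The genes most like the mean of the tested metallothioneins over the 12 arrays were GOLGA7B (Pearson r = 0.994), NUDT11 (0.993), CDYL2 (0.993), AQP9 (0.992) and RRAD (0.991). Many genes had such values, since the arrays form 2 clusters by line: 748 of 10562 genes were over 0.95 and 596 under -0.95. With each line's mean taken away, the most alike were AQP9 (0.908), GOLGA7B (0.851), CYTH1 (0.825), PSENEN (0.825) and BMP2 (0.824). AQP9 and GOLGA7B stayed at background in all 6 U373 cultures, and the mean itself holds MT1M and MT3, each at background in 1 line, so part of these values rests on signal at background. The mean of the metallothioneins itself was 7.36, 7.41 and 7.57 in U373 co-culture, against 7.28, 7.61 and 7.82 in U373 monoculture, and 9.23, 9.26 and 9.40 in U87MG co-culture, against 8.94, 9.01 and 9.12 in U87MG monoculture. The U373 values overlapped between cultures and the U87MG values did not. Among single genes tested, 11.9% did not overlap in U373 cells and 14.4% in U87MG cells. The mean itself was not tested, and 0 of 9 members passed in U87MG cells.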

How the data were processed

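RNA of 12 cultures was measured on Illumina arrays. The authors deposited values on a natural log scale after variance stabilization normalization of the array signals; division by ln 2 turned these into log2 values. The table of intensities that the authors deposited without normalization has 24 columns with no sample name, and only 1 of these columns was used, to check the log base (slope 0.982 over 2363 bright probes). Depth has no counterpart on arrays; the number of arrays limits the precision. The labels call the replicates biological and say no more of them, so p-values measure the spread between these samples.

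The annotation gave 1 gene to 27578 of 48803 probes, several genes to 13 and no gene to 21212. Probes of a gene were averaged. The background limit of an array was the mode of its values plus 3 SD, the SD taken from values under the mode; a gene was tested where at least 1 probe was above it on 3 of 12 arrays. A model of 4 group means was fitted in R 4.3.3 with limma 3.58.1, and p-values were adjusted by Benjamini-Hochberg over 10571 genes and called under 0.05. Motifs were counted and figures drawn in Python 3.11.15 (matplotlib 3.10.9, numpy 2.4.6, pandas 2.3.3). The limma step was tested on simulated data. The rank product that the authors used was not run.

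The members and lists were chosen with earlier results of these data known. All members with a probe are named, up to 4 called genes with groups not overlapping of each list per comparison, the 5 genes most like the metallothionein mean, and IGFBP5 as a gene of line identity; AQP9 and HMOX1 on single arrays, and the values of MTF1, NR3C1, NUP93 and SLC39A14 (co-culture) were chosen after their values were seen. Alternatives varied the limit, filter, scaling, probe rule, variance model, arrays and replicate block. As a check of pairing, the deviations from the group means of arrays with 1 number correlated at 0.115 to 0.207 between the monocultures, 0.131 to 0.167 between the co-cultures, 0.129 to 0.178 between the U87MG cultures, and 0.194, -0.102 and 0.56 between the U373 cultures; the labels name no shared day.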

Additional observations from a re-analysis of the deposited data

Results flagged for a closer look

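MT1X was marked because its co-culture arrays all lay below the monoculture arrays in U373 cells and all above them in U87MG cells. The difference of the co-culture effects, U373 minus U87MG, was -0.84 ± 0.18, and its test did not pass over all genes (adjusted p = 0.319 with limma; 0.149 to 0.666 over its alternatives). MT1F was marked for the same reason, at -1.04 ± 0.27 (adjusted p = 0.477, and 0.253 to 0.997 over its alternatives). Both genes were picked for this layout, and how many of all genes had it was not counted.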

How the results depend on the processing

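With single arrays left out, the count of members called between the lines stayed at 8 to 9 in monoculture and at 9 in co-culture, and it stayed at 0 for both co-culture effects and their difference. MT1H passed in monoculture with the brightest probe or only probes above background (-0.71 each), with array weights (-0.43) and without U373 monoculture replicate 2 (-0.48). The values that changed sign were small and had not passed: with further quantile normalization MT1G in U373 co-culture (-0.02) and MT2A in U87MG co-culture (0.03), with the brightest probe the difference of effects of SLC30A1 (0.15), and with array weights MT1E (0.01), MT1H (0.03) and MT3 (0.26) in U373 co-culture and the difference of effects of MT3 (0.26). With single arrays left out, the U373 co-culture differences ranged over -0.1 to 0.39 for MT1G, -0.2 to 0.04 for MT1H and -0.46 to 0.21 for MT3, the U87MG ones over -0.18 to 0.08 for MT2A and -0.06 to 0.05 for MT3, and the differences of effects over -0.01 to 0.25 for MT2A, -0.45 to 0.22 for MT3 and -0.24 to 0.09 for SLC30A1. The cause was not tested. With the replicate block 8 members passed in monoculture, 9 in co-culture and 0 elsewhere; it changed no member's call and gave 23 genes for the U373 co-culture effect in place of 12, and 2 in place of 1 for the difference of effects. That count of 12 was 3 with no filter, 21 with trended variance, 97 with array weights, 3 with only the compared groups, and 3 to 159 with single arrays left out (159 without U373 co-culture replicate 1, 3 without replicate 2). The count of 0 for U87MG cells was 2 with array weights and 3 with only the compared groups, and the count of 1 for the difference of effects was 0 to 2. The difference of effects could not be fitted with only 2 groups, and MT3 was not tested at the 5 SD limit. Signal near background limits MT1G, MT1H, MT1M and MT3.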
